A study of Mus musculus with 2 samples.

Results

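The 5 *Dlx* homeobox genes *Dlx1*, *Dlx2*, *Dlx3*, *Dlx5* and *Dlx6*, chosen by name from the 27998 genes counted, were followed through the cell classes of the ocular area of the mouse embryo. Cells came from the eye region of C57BL/6 embryos at the 26-somite stage (E9.25) and their RNA was read from the 3′ end in droplets (10x Chromium). There was 1 library from 1 wild-type (WT) embryo and 1 from 1 *Mab21l1*-null (KO) embryo. Each library pools the optic areas of its embryo after dissociation with trypsin. With 1 library per genotype no test between genotypes was possible, and all intervals below are exact 95% intervals that cover counting error only.

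*Dlx* genes are the vertebrate relatives of the fly gene Distal-less and encode homeodomain transcription factors. They lie in the genome as neighbouring genes that are transcribed towards each other and share regulatory elements, so that the members of a pair are often expressed in the same cells. In the embryonic head they are known from neural crest cells bound for the branchial arches, from non-neural ectoderm and the placodes at its border with the neural plate, and from ventral forebrain cells that become GABA neurones.

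The loci were read from GENCODE annotation of GRCm38. *Dlx1* (ENSMUSG00000041911, chr2:71528113-71533981, plus strand) and *Dlx2* (ENSMUSG00000023391, chr2:71543408-71546754, minus strand) lie 9426 bases apart. *Dlx6* (ENSMUSG00000029754, chr6:6863334-6868568, plus strand) and *Dlx5* (ENSMUSG00000029755, chr6:6877805-6882085, minus strand) lie 9236 bases apart. *Dlx3* (ENSMUSG00000001510, chr11:95120119-95125296, plus strand) lies 15150 bases from *Dlx4*, its partner in the same arrangement. All 5 are protein-coding. Exons of *Dlx1* overlap the antisense gene *Dlx1as*, and exons of *Dlx6* overlap the antisense gene *Dlx6os2*, on the opposite strand.

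*Dlx1* and *Dlx2* were counted together in the same class of cells, as described below, and the 250 bases before the start site of each, from RefSeq on GRCm38.p6, are shown for that reason. Capitals mark the E-box CANNTG, the motif of basic helix-loop-helix factors, which reads the same way on both strands. The 1st window is chr2:71529195-71529444 on the plus strand and the 2nd is chr2:71546755-71547004 on the minus strand. The RefSeq start of *Dlx1* lies inside the gene as GENCODE gives it, which begins at chr2:71528113. The 1st window is thus within the GENCODE gene, whereas the 2nd adjoins the GENCODE start of *Dlx2*, and the windows are not at like positions by that annotation.
Dlx1: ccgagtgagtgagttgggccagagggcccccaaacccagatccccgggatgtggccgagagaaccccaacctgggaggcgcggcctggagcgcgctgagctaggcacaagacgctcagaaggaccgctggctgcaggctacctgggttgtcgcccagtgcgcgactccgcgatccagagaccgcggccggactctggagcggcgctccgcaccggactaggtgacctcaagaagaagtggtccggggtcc
Dlx2: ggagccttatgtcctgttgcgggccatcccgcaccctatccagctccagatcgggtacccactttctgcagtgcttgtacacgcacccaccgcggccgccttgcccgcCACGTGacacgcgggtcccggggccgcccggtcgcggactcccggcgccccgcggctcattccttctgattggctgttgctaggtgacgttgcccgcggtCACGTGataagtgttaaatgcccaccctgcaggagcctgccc
The *Dlx2* window held 2 E-boxes, both CACGTG, starting 142 and 42 bases before the start site, and the *Dlx1* window held none. CANNTG occurred in 66.2% and CACGTG in 6.02% of 32851 RefSeq promoter windows of the same length. The letters GCCNNNGGC, a motif of AP-2 factors, were in neither window and in 13.7% of all windows, and the homeodomain core TAATT, searched on both strands, was in neither and in 25.0%. These matches describe letters and not binding.

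The WT-labelled library held 1745 barcodes and 43636657 UMIs, of which 1680 cells with 41880035 UMIs were kept, and the KO-labelled library held 2458 barcodes and 53148253 UMIs, of which 2404 cells with 52430844 UMIs were kept. The median was 21037 UMIs per kept cell in the WT-labelled library and 18135 in the KO-labelled library, and 15 barcode sequences occurred in both. *Mab21l1*, the targeted gene, was counted with 886 UMIs in the WT-labelled library, 20.3 CPM (counts per 1e6 UMIs, 19.0 to 21.7), and with 1718 UMIs in the KO-labelled library, 32.3 CPM (30.8 to 33.9). In ectoderm-like cells the order was the other way round, with 86.8 CPM (70.6 to 106) and 37.8 CPM (26.5 to 52.4). Which part of the gene the null allele lacks is not given in the sources used here, so these 3′ counts do not check the genotype, and every direction below rests on the labels.

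Clusters were formed over both libraries at once, with every *Dlx* gene left out of the genes used, and a cluster was named after a class where at least 3 of its markers were 2-fold or more above all other cells. Ectoderm-like cells (58 in the WT-labelled library and 48 in the KO-labelled library) raised all 7 ectoderm markers, among them *Krt8* and *Epcam*. Neural crest-like cells (30 and 31) raised all 6 crest markers, among them *Sox10* and *Foxd3*. The other named classes were mesenchyme-like (499 and 774 cells), optic vesicle-like (229 and 476), forebrain neural ectoderm-like (368 and 447), endothelium-like (66 and 102) and erythrocyte-like (38 and 52), and 842 cells in 4 clusters stayed unnamed.

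The 5 genes fell into 2 patterns. *Dlx3*, *Dlx5* and *Dlx6* were ectodermal, with 58.9%, 76.8% and 80.0% of their UMIs in the ectoderm-like cells, which held 2.22% of all UMIs. *Dlx1* and *Dlx2* were highest in neural crest-like cells, which held 63.8% and 41.1% of their UMIs and 1.11% of all UMIs, and *Dlx2* had a further 16.8% in the ectoderm. *Dlx3*, *Dlx5* and *Dlx6* had 0 UMIs in the 61 neural crest-like cells of both libraries. *Dlx1* had 0 UMIs in the 58 ectoderm-like cells of the WT-labelled library.

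**Figure D1:**
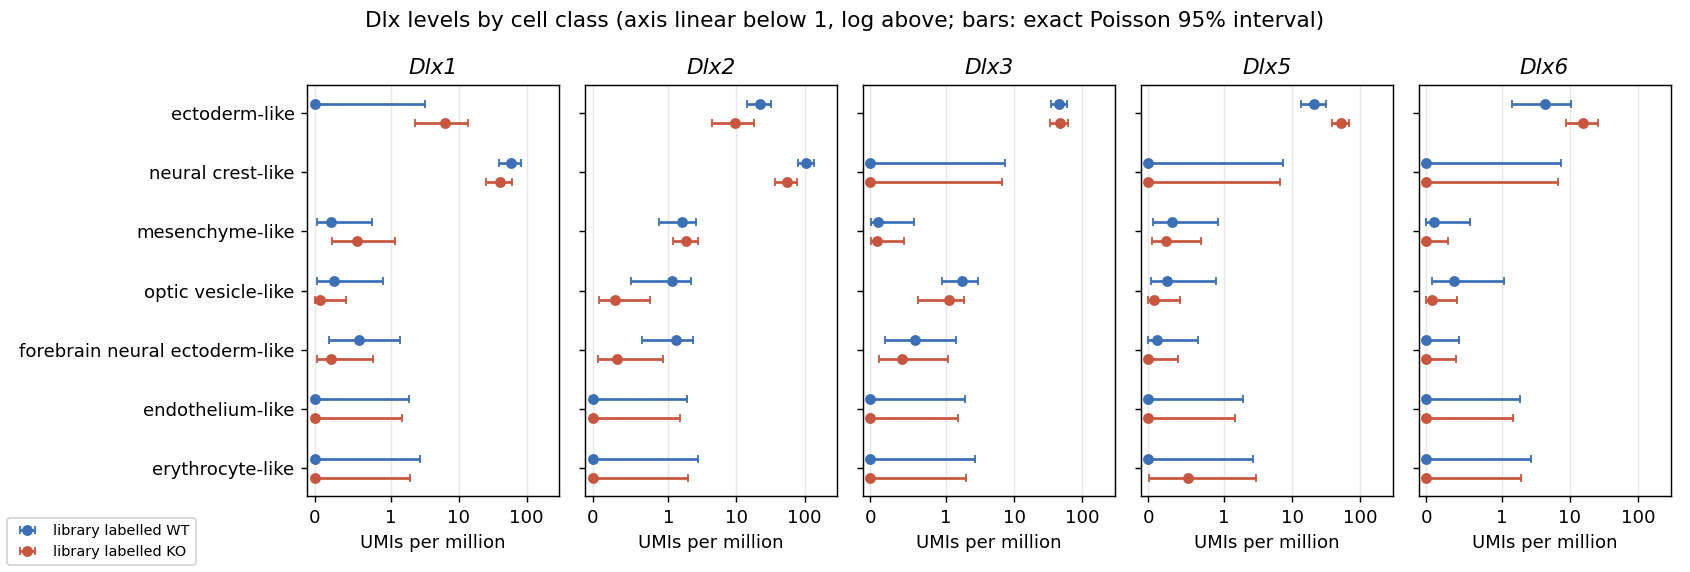
Level of each *Dlx* gene (CPM, axis linear below 1 and logarithmic above) by cell class, for the WT-labelled library (blue) and the KO-labelled library (red). Points are class sums and bars their exact Poisson 95% intervals, and *Dlx3*, *Dlx5* and *Dlx6* lie highest in ectoderm-like cells, *Dlx1* and *Dlx2* in neural crest-like cells.

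Against all other kept cells of the same library, a level was called different at 1.5-fold or more with at least 20 UMIs on both sides together. In the WT-labelled library, 3 of the 4 members with enough UMIs (*Dlx2*, *Dlx3* and *Dlx5*) were higher in ectoderm-like cells, where 20.2% of all genes were higher and 20.3% lower, and the remaining gene, *Dlx1*, had 0 UMIs. All 4 members with enough UMIs in the KO-labelled library were higher there, beside 18.7% of all genes higher and 22.4% lower. In neural crest-like cells, 2 of 4 were higher in each library, beside 17.4% of all genes higher in each and 36.5% and 30.7% lower. These were the same 2 genes, *Dlx1* and *Dlx2*.

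Red blood cells, which should lack *Dlx* RNA, gave the level of free RNA in the droplets. Erythrocyte-like cells had 0 UMIs of *Dlx1*, *Dlx2*, *Dlx3* and *Dlx6* in both libraries at medians of 34642.5 and 33621.5 UMIs per cell, where 3 counts would give shares of 7.89% and 5.77% of cells with a UMI and the exact upper limits are 9.251% and 6.85%. *Dlx5* had 1 UMI there, in 1 of 52 cells of the KO-labelled library (1.92%). Endothelium-like cells had 0 UMIs of all 5 genes, with exact upper limits of 5.44% of 66 cells and 3.55% of 102.

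*Dlx3*, which acts in the epidermis, its appendages and the placenta, was counted in most of the ectoderm-like cells of each library. Ectoderm-like cells held 52 UMIs in 31 of 58 cells in the WT-labelled library, 45.6 CPM (34.1 to 59.8), and 44 UMIs in 28 of 48 cells in the KO-labelled library, 46.2 CPM (33.6 to 62.1). The ratio of the KO-labelled library to the WT-labelled library was 1.01 (0.663 to 1.54), with an interval that just includes 1.5-fold in both directions. Most other *Dlx3* UMIs were counted in optic vesicle-like cells and in an unnamed cluster. Optic vesicle-like cells held 14 UMIs in 13 of 229 cells (5.68%) and 15 UMIs in 13 of 476 cells (2.73%). Within each library, these shares and the levels in CPM lie under the upper limits in erythrocyte-like cells. With both libraries together, the intervals of share and level lie above the upper limits in endothelium-like cells but include those in erythrocyte-like cells. The part of free RNA in these counts was not tested. The unnamed cluster led by *Pmel*, *Dct* and *Tyrp1*, genes of melanin synthesis, held 7 UMIs in 7 of 228 cells and 18 UMIs in 15 of 273 cells.

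Ectoderm marker RNA moved with *Dlx3* in the optic vesicle-like cells. The 7 ectoderm markers together reached 99.1 CPM (75.4 to 128) in the 13 cells of the WT-labelled library with a *Dlx3* UMI and 28.6 CPM (24.9 to 32.7) in the 216 without. In the KO-labelled library they reached 40.6 CPM (25.5 to 61.5) in 13 cells and 17.9 CPM (15.7 to 20.4) in 463. Cells with a *Dlx3* UMI were also deeper, with medians of 41085 and 41322 UMIs against 29227 and 23608. The part of these cells' ectoderm RNA in the *Dlx3* counts was not tested. For optic vesicle-like cells the *Dlx3* ratio of the KO-labelled library to the WT-labelled library was 0.641 (0.288 to 1.43), past the fold where 3.37% of 11933 genes were lower and 3.08% higher, and clustering at another resolution turned its direction.

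*Dlx5*, a gene of the olfactory and otic placodes, the anterior neural plate border and the lower jaw, had the most UMIs of the members past 1.5-fold between the libraries in ectoderm-like cells. Ectoderm-like cells held 24 *Dlx5* UMIs in 16 of 58 cells in the WT-labelled library, 21.05 CPM (13.5 to 31.3). They held 49 UMIs in 27 of 48 cells in the KO-labelled library, 51.5 CPM (38.1 to 68.1). The level in the KO-labelled library was 2.45 times that in the WT-labelled library (1.47 to 4.17).

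*Dlx6*, the partner of *Dlx5* at the same locus, was sparse and leaned the same way. It had 5 UMIs in 5 of 58 ectoderm-like cells, 4.38 CPM (1.42 to 10.2), in the WT-labelled library and 15 UMIs in 12 of 48 cells, 15.8 CPM (8.82 to 26.0), in the KO-labelled library. Its ratio was 3.59 (1.24 to 12.6). *Dlx2* went the other way in these cells, with 25 UMIs in 14 cells, 21.9 CPM (14.2 to 32.4), and 9 UMIs in 9 cells, 9.46 CPM (4.32 to 17.9), a ratio of 0.431 (0.177 to 0.955). *Dlx1* had 0 and 6 UMIs, of which 3 were in 1 cell. This is too few for a call, at 2.40-fold against a floor of 3 counts per library and with an exact lower limit of 1.41.

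Of the 4 members with at least 20 UMIs in ectoderm-like cells, 2 (*Dlx5* and *Dlx6*) were 1.5-fold or more higher in the KO-labelled library, where 6.93% of 8025 genes were, and 1 (*Dlx2*) was lower, where 10.3% were. *Dlx3* was within the fold. The class mix also differed, with 30 of 58 cells SE-like, described below, in the WT-labelled library and 16 of 48 in the KO-labelled library, and its part in these ratios was not tested.

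**Figure D2:**
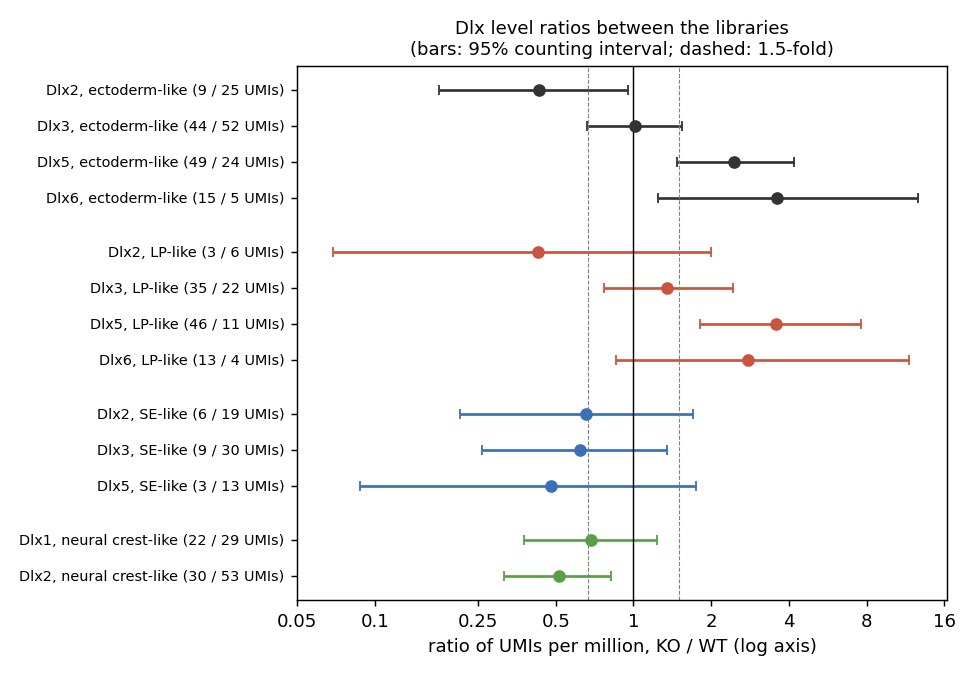
Ratio of CPM in the KO-labelled library to that in the WT-labelled library (logarithmic axis), with the UMIs of both libraries beside each gene and class. Points are ratios, bars exact 95% counting intervals and dashed lines the 1.5-fold limits, and only the *Dlx5* interval in LP-like cells lies wholly beyond them.

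The ectoderm-like cells were split into cells with lens placode markers (LP-like, 28 in the WT-labelled library and 32 in the KO-labelled library) and cells with markers of the surrounding surface ectoderm (SE-like, 30 and 16), without the *Dlx* genes and the genes named in the study. LP-like cells raised 9 of 10 lens placode markers and SE-like cells 9 of 12 surface ectoderm markers. *Mab21l1*, itself a lens placode marker, stood at 141 CPM (112 to 175) in LP-like cells of the WT-labelled library and at 48.4 CPM (33.3 to 68.0) in those of the KO-labelled library.

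The *Dlx5* difference was found in the LP-like cells. LP-like cells of the WT-labelled library held 11 *Dlx5* UMIs, 19.0 CPM (9.46 to 33.9), and those of the KO-labelled library held 46, 67.5 CPM (49.4 to 90.0), a ratio of 3.56 (1.82 to 7.62). In the WT-labelled library 21 of 28 cells had 0 UMIs, 5 had 1, 1 had 2 and 1 had 4. In the KO-labelled library 8 of 32 cells had 0 UMIs, 11 had 1, 9 had 2 and 4 had 3 or more, up to 6. The share of cells with a UMI was 25.0% (10.7 to 44.9) and 75.0% (56.6 to 88.5), and at 10000 UMIs in every cell it was 4 of 26 cells, 15.4% (4.36 to 34.9), and 13 of 30 cells, 43.3% (25.5 to 62.6).

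No single cell carried this difference. Without the cell with the most *Dlx5* UMIs, LP-like cells of the KO-labelled library held 40 UMIs and the ratio was 3.17. SE-like cells held 13 *Dlx5* UMIs in 9 of 30 cells in the WT-labelled library, 23.2 CPM (12.4 to 39.7), and 3 UMIs in 3 of 16 cells in the KO-labelled library, 11.1 CPM (2.29 to 32.5). That ratio, 0.479 (0.0875 to 1.74), rests on 16 UMIs, too few for a call, and other splits of the ectoderm turned its direction.

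The other members gave smaller or less certain differences in the LP-like cells. *Dlx3* had 22 UMIs in 14 of 28 cells and 35 UMIs in 23 of 32 cells, a ratio of 1.35 (0.772 to 2.42). This ratio ran from 1.25 to 2.31 over the alternatives tried, past the fold at the upper end. *Dlx6* had 4 UMIs in 4 cells and 13 UMIs in 10 cells, a ratio of 2.77 (0.855 to 11.6), whose interval includes 1. *Dlx2* had 6 and 3 UMIs. Of the 2 members with at least 20 UMIs there, 1 (*Dlx5*) was higher in the KO-labelled library, where 10.3% of 6414 genes were higher and 11.8% lower. In SE-like cells both members with at least 20 UMIs were lower in the KO-labelled library, where 12.9% of 5241 genes were lower and 9.98% higher. These were *Dlx2*, with 19 and 6 UMIs and a ratio of 0.655 (0.214 to 1.71), and *Dlx3*, with 30 and 9 UMIs and a ratio of 0.622 (0.260 to 1.34), and both intervals include 1. Over the alternatives tried these ratios ran from 0.415 to 0.749 and from 0.395 to 0.730, which ended both calls in some.

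**Figure D3:**
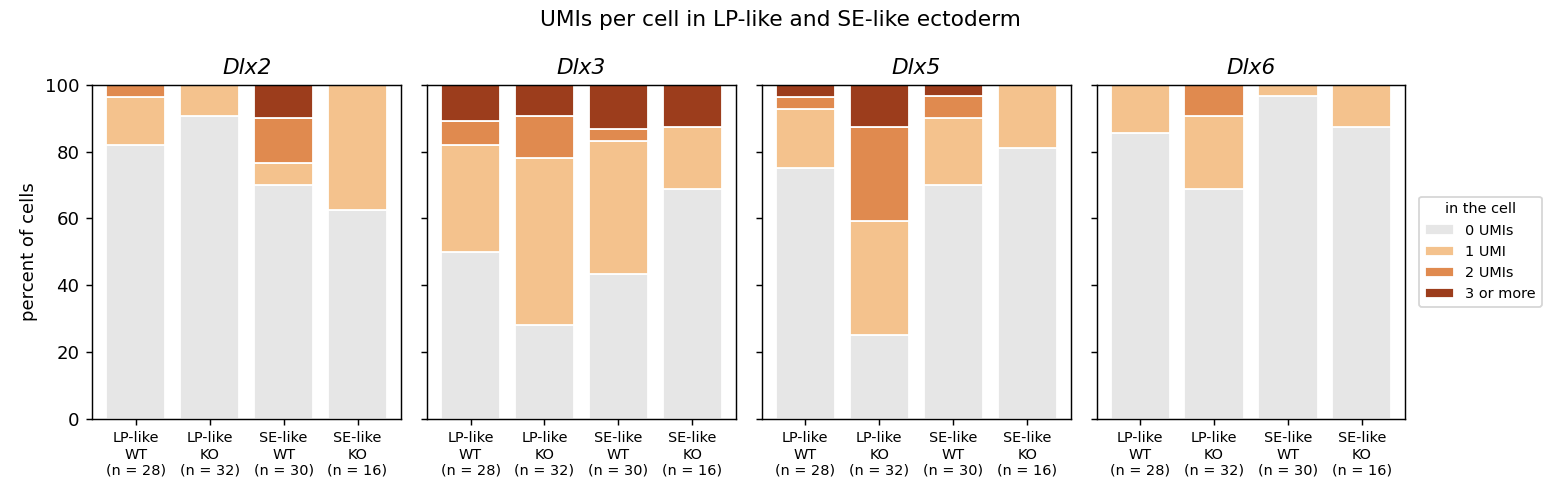
Percent of LP-like and SE-like cells with 0, 1, 2 or 3 or more UMIs of *Dlx2*, *Dlx3*, *Dlx5* and *Dlx6*, by library label, with the number of cells under each bar. In LP-like cells of the KO-labelled library 24 of 32 cells had a *Dlx5* UMI, against 7 of 28 in the WT-labelled library.

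Between the ectodermal classes, *Dlx2* was higher on the surface ectoderm side with both libraries together, whereas the pooled *Dlx5* value rested on the KO-labelled library. Pooled, *Dlx2* had 9 UMIs on the LP-like and 25 on the SE-like side, a ratio of LP-like to SE-like of 0.237 (0.0972 to 0.524). In the WT-labelled library it had 6 and 19 UMIs, a ratio of 0.305 (0.0996 to 0.793). The KO-labelled library had 3 and 6 UMIs, too few for a call, at 0.198 (0.0320 to 0.927). *Dlx5* had 57 and 16 UMIs, a ratio of 2.34 (1.33 to 4.37), and *Dlx6* had 17 and 3, a ratio of 3.73 (1.08 to 19.8). Most *Dlx6* UMIs were from the KO-labelled library, with 13 and 2, against 4 and 1 in the WT-labelled library. Within either library these are too few for a call, and both intervals include 1. *Dlx3*, with 57 and 39 UMIs, did not separate the classes at 0.961 (0.628 to 1.48). Thus, with the libraries pooled, 2 of 4 members were higher in LP-like cells, where 9.02% of 8025 genes were, and 1 was lower, where 14.0% were.

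The *Dlx5* ratio was not alike in the libraries. In the WT-labelled library *Dlx5* stood at 19.0 CPM (LP-like) and 23.2 CPM (SE-like), a ratio of 0.816 (0.331 to 1.97). In the KO-labelled library it stood at 67.5 and 11.1 CPM, a ratio of 6.07 (1.95 to 30.5). The difference between these ratios was not tested.

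Partners at the same locus were compared in single cells by counting cells with a UMI of both. In LP-like cells of the KO-labelled library, 24 cells had *Dlx5*, 10 had *Dlx6* and 7 had both, where the product of the shares gives 7.5 cells. In LP-like cells of the WT-labelled library these were 7, 4 and 1, where the product gives 1. In ectoderm-like cells of the WT-labelled library, 16 had *Dlx5*, 5 had *Dlx6* and 1 had both, where the product gives 1.38. In those of the KO-labelled library these were 27, 12 and 7, where the product gives 6.75. *Dlx3* and *Dlx5* shared 10 of 58 and 19 of 48 ectoderm-like cells, where the products give 8.55 and 15.8. *Dlx2* and *Dlx5* shared 3 of 58 and 2 of 48, where the products give 3.86 and 5.06. Over all ectoderm-like cells the joint count was thus lower than the product for *Dlx2* with *Dlx5*. Within the classes this pair shared 0 and 2 LP-like cells, where the products give 1.25 and 2.25. It shared 3 and 0 SE-like cells, where they give 2.70 and 1.125. The part of the class mix was not tested. *Dlx2* with *Dlx3* shared 7 and 3 ectoderm-like cells, where the products give 7.48 and 5.25.

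Genes of the surroundings of the *Dlx* pathway were followed in lists. BMP signalling is an input to *Dlx* genes at the neural plate border, and *Msx1* and *Msx2* are homeobox genes it also drives. In LP-like cells 2 of the 6 BMP genes with at least 20 UMIs were 1.5-fold or more higher in the KO-labelled library and none was lower, beside 10.3% and 11.8% of all genes. These were *Bmp4*, a ligand, with 20 and 45 UMIs, 34.5 and 66.0 CPM, a ratio of 1.92 (1.11 to 3.42), and *Smad7*, an inhibitor that the pathway induces, with 17 and 36 UMIs, a ratio of 1.80 (0.987 to 3.42). *Id1*, a target of the pathway, was within the fold at 1.45 (1.14 to 1.86). In all ectoderm-like cells none of 7 passed the fold, and in SE-like cells none of 6 was higher and *Id1* was lower, at 0.593 (0.351 to 0.962). *Bmp4* had 16 and 0 UMIs in SE-like cells, opposite to its direction in LP-like cells. The median ratio of the list in LP-like cells was 1.33, beside 0.985 over all genes.

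Among LP-like cells *Msx1* had 0 UMIs in the WT-labelled and 23 in the KO-labelled library, 6.53-fold higher against a floor of 3 counts per library with an exact lower limit of 4.89, and *Msx2* had 19 and 36, a ratio of 1.61 (0.901 to 2.98). *Edn1*, the endothelin signal that acts ahead of *Dlx5* and *Dlx6* in the lower jaw, had 5 and 20 UMIs, a ratio of 3.40 (1.24 to 11.6). The *Msx1* UMIs sat in few cells, with 22 of 23 in 5 of the 24 cells that also had a *Dlx5* UMI. *Edn1* was counted in 12 of those 24 cells and in 2 of the 8 without. Its level was alike in both, at 29.5 CPM (16.8 to 47.9) and 28.8 CPM (7.84 to 73.7).

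Among the 17 factors of non-neural ectoderm and placodes, 8 had at least 20 UMIs in LP-like cells, of which 3 were higher in the KO-labelled library (*Gata3*, *Msx1* and *Msx2*) and 1 was lower (*Tfap2a*), beside 10.3% and 11.8% of all genes, with a median ratio of 1.13. *Tfap2a*, an AP-2 factor of early ectoderm, had 66 and 48 UMIs, a ratio of 0.619 (0.418 to 0.912). *Gata3*, an epidermal factor, had 9 and 22 UMIs, a ratio of 2.08 (0.921 to 5.13). Over all ectoderm-like cells 12 had enough UMIs, of which 3 were higher (*Tfap2c*, *Gata3* and *Msx1*) and 4 were lower (*Tfap2a*, *Tfap2b*, *Foxi2* and *Grhl2*), beside 6.93% and 10.3% of all genes, with a median of 0.926 beside 0.987 over all genes. Of the 7 olfactory and anterior ectoderm genes only *Otx1*, a head patterning factor, had at least 20 UMIs in LP-like cells, with 20 and 51 UMIs and a ratio of 2.17 (1.27 to 3.84). *Sp8* was below that number.

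Ectoderm-like cells with and without a *Dlx5* or *Dlx6* UMI were compared within each library, by the top 5 and bottom 5 ratios found in both, which describes extremes chosen for their size. *Foxi2*, a forkhead factor of cranial ectoderm, was among the lowest, at 9.65 CPM in the 20 cells with a UMI and 68.9 CPM in the 38 without in the WT-labelled library, and at 2.94 CPM in 32 cells and 84.5 CPM in 16 cells in the KO-labelled library. *Wnt6*, an ectodermal signal and a surface ectoderm marker here, was also lower, at 45.8 and 136 CPM and at 53.0 and 290 CPM. *Rab38*, *Plagl1* and *Ahnak* were the other 3. The cells without a UMI were 18 LP-like and 20 SE-like in the WT-labelled library and 5 and 11 in the KO-labelled library. LP-like cells with a *Dlx5* UMI held 0 and 1 *Foxi2* UMIs, and those without held 0 and 0. In SE-like cells *Foxi2* stood at 24.1 CPM with and 127 CPM without a *Dlx5* UMI in the WT-labelled library. In the KO-labelled library these were 21.5 CPM in 3 cells and 103 CPM in 13. The part of the class mix was not tested. The 5 highest (*Nrm*, *Aldh1a7*, *Mrpl39*, *Prorsd1* and *Grrp1*) had ratios between 2.002 and 4.404.

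In neural crest-like cells *Dlx1* and *Dlx2*, which pattern the arch skeleton and later the interneurones of the forebrain, were counted at the highest levels of any class. The WT-labelled library held 29 *Dlx1* UMIs in 16 of 30 cells, 58.2 CPM (39.0 to 83.6), and the KO-labelled library held 22 in 13 of 31 cells, 40.01 CPM (25.1 to 60.6). *Dlx2* had 53 UMIs in 21 of 30 cells, 106 CPM (79.7 to 139), and 30 UMIs in 21 of 31 cells, 54.6 CPM (36.8 to 77.9). Both genes were among the 10 genes that set these cells most apart from the rest, beside *Sox10* and *Erbb3*, although neither was used to form the cluster.

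The share of neural crest-like cells with *Dlx2* was 70.0% (50.6 to 85.3) and 67.7% (48.6 to 83.3), and at 10000 UMIs in every cell it was 60.7% (40.6 to 78.5) of 28 cells and 45.2% (27.3 to 64.0) of 31 cells. In the WT-labelled library 10 cells had 1 UMI, 3 had 2 and 8 had 3 or more, up to 11, and in the KO-labelled library 15 had 1, 4 had 2 and 2 had 3 or more, up to 4. The ratio of the KO-labelled library to the WT-labelled library was 0.513 (0.316 to 0.818) for *Dlx2* and 0.688 (0.376 to 1.24) for *Dlx1*. Without the cell of 11 UMIs the *Dlx2* ratio was 0.620. So 1 of the 2 members was lower in the KO-labelled library, where 7.92% of 5590 genes were lower and 14.2% higher.

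Both genes were counted in 13 of 30 neural crest-like cells of the WT-labelled library, where the product of the shares gives 11.2, and in 9 of 31 of the KO-labelled library, where it gives 8.81. With every cell at the same depth, as for the shares above, 6 of 28 cells of the WT-labelled library had both, where the product gives 4.86. In the KO-labelled library 3 of 31 cells then had both, where it gives 4.52. The joint count of the KO-labelled library thus went from above the product to below it. The cell with the most UMIs of *Dlx2* in the WT-labelled library, 11, also had the most of *Dlx1*, 5. *Dlx1as*, the antisense gene at the locus, had 3 UMIs in these cells of the WT-labelled library and 0 in those of the KO-labelled library.

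**Figure D4:**
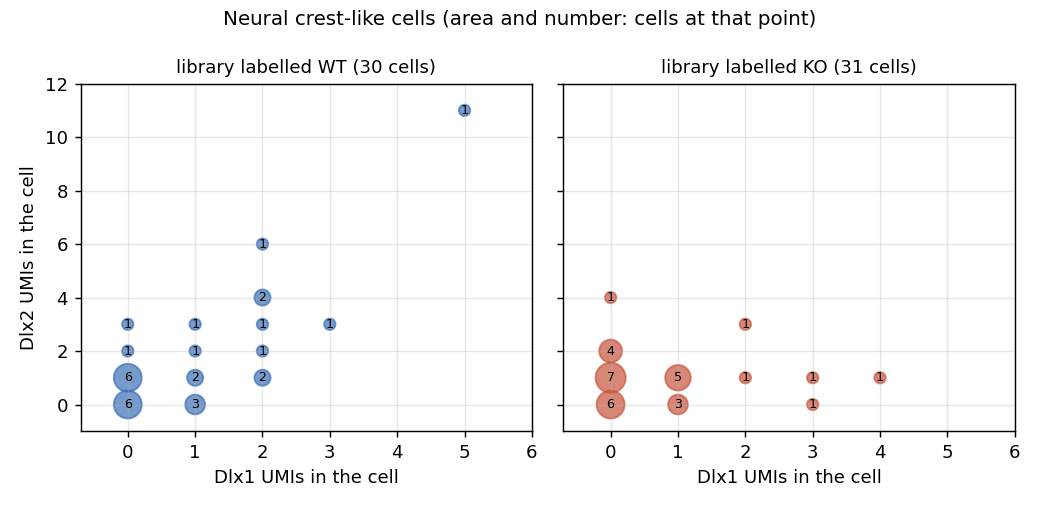
*Dlx1* UMIs (horizontal) against *Dlx2* UMIs (vertical) in single neural crest-like cells of the WT-labelled library (30 cells) and the KO-labelled library (31 cells), with circle area and number giving the cells at each point. Cells with 3 or more *Dlx2* UMIs were 8 in the WT-labelled library and 2 in the KO-labelled library, and 6 cells in each library had neither gene.

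In mesenchyme, the connective tissue around the eye, few cells had a *Dlx2* UMI. *Dlx2* had 15 UMIs in 13 of 499 mesenchyme-like cells, 1.57 CPM (0.877 to 2.58), in the WT-labelled library and 23 in 20 of 774 cells, 1.84 CPM (1.17 to 2.76), in the KO-labelled library, a ratio of 1.17 (0.587 to 2.42). Within each library these levels lie under the upper limits in erythrocyte-like cells, 2.69 and 1.94 CPM from 0 UMIs. The share of cells, 2.61% and 2.58%, also lies under the limits there. With both libraries together *Dlx2* stood at 1.72 CPM (1.22 to 2.36) in mesenchyme-like cells. Upper limits from 0 UMIs were then 1.13 CPM in erythrocyte-like and 0.828 CPM in endothelium-like cells, below that interval. The pooled share of cells with a UMI was 2.59% (1.79 to 3.62). Upper limits of 4.02% in erythrocyte-like and 2.17% in endothelium-like cells do not lie below that interval. Median depth differed, at 16583 UMIs per cell in mesenchyme-like, 34072 in erythrocyte-like and 22568 in endothelium-like cells. The part of free RNA in these counts was not tested. *Dlx2*, with at least 20 UMIs, did not pass the fold, beside 3.54% of 11794 genes higher and 3.49% lower. *Dlx1* had 2 and 7 UMIs, *Dlx5* 3 and 3, *Dlx3* 1 and 1, and *Dlx6* 1 and 0.

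The *Dlx2* UMIs of mesenchyme-like cells came from 2 of the 4 clusters. The cluster led by *Nkx6-1*, *Heyl* and *Tbx18*, with high *Foxd1*, held 13 UMIs in 11 of 289 cells and 11 UMIs in 8 of 316 cells. The cluster with high *Alx1* and *Pax3*, at ratios of 2.29 and 2.51 to the other mesenchyme-like cells, held 2 UMIs in 2 of 110 cells and 12 UMIs in 12 of 326 cells. In that cluster *Alx4* and *Tfap2b* were lower, at 0.573 and 0.425, and the arch markers *Gsc* and *Lhx8* were higher, at 4.53 and 103. The 146 cells led by *Cga*, *Fam46a* and *Alcam* and the 86 shallow cells of the last cluster held 0 *Dlx1* and *Dlx2* UMIs, with upper limits of 1.60 and 3.98 CPM, and the latter lies above the level over all mesenchyme-like cells. *Hand2* and *Hoxa2*, branchial arch markers, had 0 UMIs in all mesenchyme-like cells.

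Crest markers were higher in the mesenchyme-like cells with *Dlx1* or *Dlx2*, more clearly in the WT-labelled library. The 6 markers together stood at 118 CPM (82.5 to 163) in the 14 cells with a UMI and 36.7 CPM (32.9 to 40.8) in the 485 without in the WT-labelled library, and at 56.1 CPM (36.3 to 82.8) in 26 and 35.1 CPM (31.8 to 38.6) in 748 in the KO-labelled library. The intervals of the KO-labelled library overlap. Their part in the *Dlx* counts was not tested. In ectoderm-like cells the same markers were lower with a *Dlx2* UMI, at 31.6 against 58.6 CPM in the WT-labelled library. The KO-labelled library gave 41.2 against 56.3 CPM there, and the intervals overlap in each library. The genes most different between mesenchyme-like cells with and without a *Dlx1* or *Dlx2* UMI are extremes chosen for their size. *Lhx8*, a LIM homeobox gene of the upper jaw that acts with *Dlx* genes, led the higher ones on the KO-labelled library alone. There it had 13 UMIs in the 26 cells and 37 in the 748, 29.2 and 3.07 CPM. It had 0 UMIs in all 499 mesenchyme-like cells of the WT-labelled library and 50 in the KO-labelled library, 49 of them in the *Alx1*-high cluster. *Heyl*, a Notch target, was higher in both libraries, at 32.7 and 7.01 CPM and at 38.1 and 6.80 CPM. *Heyl* also leads the cluster with high *Foxd1*, and the part of the cluster mix was not tested.

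Of the 17 arch partners and targets, 9 had at least 20 UMIs in mesenchyme-like cells, with a median ratio of 1.04 beside 1.003 over all genes. *Dusp6*, a feedback inhibitor of FGF signalling, had 140 and 306 UMIs, a ratio of 1.67 (1.37 to 2.06), and *Msx2* had 244 and 199, a ratio of 0.625 (0.516 to 0.757). The *Alx1*-high cluster held 110 of 499 mesenchyme-like cells in the WT-labelled library and 326 of 774 in the KO-labelled library, and its part in these ratios was not tested. All 6 frontonasal genes had enough UMIs and none passed the fold.

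Forebrain neural ectoderm-like cells, as named by their clusters, held few *Dlx* UMIs. The name is uncertain, as the paper names several optic vesicle clusters and no forebrain cluster. When each cell was assigned by its own markers, only 15 of these 368 cells and 9 of these 447 fell in the forebrain class. That assignment put 815 and 1107 cells in the optic vesicle class, where the clusters put 229 and 476. Its forebrain class took 16 and 10 cells, in which *Dlx2* stood at 23.7 CPM over both libraries. The values below are for the clusters. *Dlx2* had 11 UMIs in 5 of 368 cells (1.36%) in the WT-labelled library, of which 6 were in 1 cell, and 3 UMIs in 3 of 447 cells (0.671%) in the KO-labelled library. *Dlx1* had 5 and 2 UMIs, *Dlx3* 5 and 4, *Dlx5* 1 and 0, and *Dlx6* 0 and 0. The 5 cells with *Dlx2* in the WT-labelled library held crest markers at 206 CPM (118 to 335), against 86.3 CPM (80.2 to 92.9) in the 363 without, and in the KO-labelled library these were 76.1 and 77.8 CPM. Their part in the *Dlx2* counts was not tested. No member reached 20 UMIs, so none was compared between the libraries.

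*Gad1*, *Gad2* and *Slc32a1*, which make and load GABA in the interneurones that later express *Dlx* genes, had 0 UMIs in the cells of both libraries that clusters named forebrain neural ectoderm-like. The share of these cells in the cluster led by *Fn3krp* and *Slc2a12* differed, with 146 of 368 and 48 of 447 cells, and its part in the *Dlx* counts was not tested.

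Across 30 profiles, each a cluster in 1 library with at least 10 cells, the members correlated in the same 2 groups on log2(CPM + 5). Pearson's r was 0.974 for *Dlx5* with *Dlx6*, 0.947 for *Dlx3* with *Dlx5*, 0.907 for *Dlx3* with *Dlx6* and 0.879 for *Dlx1* with *Dlx2*, and it lay between 0.0365 and 0.295 for pairs across the groups. The profiles are sums of the same clusters in which the 2 patterns were seen, so these values restate the patterns and do not test them. The ectoderm-like cells held 76.8% of *Dlx5* and 80.0% of *Dlx6* UMIs, so few profiles set these r values. The profiles also share libraries and depth. Among 12183 genes with at least 100 UMIs, those most like *Dlx1* were *Insc*, *Prss12*, *Ednrb*, *Phactr1* and *1700019D03Rik* (r from 0.952 to 0.964). Those most like *Dlx2* were *Erbb3*, *Ass1*, *Phactr1*, *1700019D03Rik* and *Ednrb* (0.905 to 0.942).

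*Dlx3* was most like *Spint1*, *Tmem54*, *Epcam*, *Fermt1* and *Krt7* (r from 0.978 to 0.982), *Dlx5* most like *Gm16136*, *Wnt6*, *Cldn4*, *Cldn6* and *Spint1* (0.975 to 0.980), and *Dlx6* most like *Cldn3*, *Spint1*, *Cldn4*, *Gm16136* and *Cldn6* (0.936 to 0.963). *Cldn3*, *Cldn4* and *Cldn6* encode claudins of tight junctions.

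The remaining genes of the loci were scarce. *Dlx4*, the partner of *Dlx3*, had 8 UMIs in 7 of 58 ectoderm-like cells and 3 in the KO-labelled library, and 8 and 10 UMIs over all kept cells. *Dlx4os* had 8 and 3, *Dlx6os1* 5 and 1 and *Dlx1as* 4 and 0 UMIs over all kept cells. Of the *Dlx6os1* UMIs, 4 were in ectoderm-like cells of the WT-labelled library and 0 in those of the KO-labelled library. This is too few for a call, at 1.11-fold lower against a floor of 3 counts per library and with an exact upper limit of 1.81 for the ratio.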

How the data were processed

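The eye region of 1 embryo per genotype gave 1 library of single-cell 3′ RNA sequencing (10x Chromium). UMI counts per gene and barcode were made by the authors with Cell Ranger, on mm10 (GRCm38) per the submitters' notes, and were deposited as raw whole numbers. Merging libraries with Cell Ranger can subsample reads, which affects depth. Of 27998 gene identifiers, 27722 matched GENCODE annotation.

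Of 4203 barcodes, 4084 passed limits of 1500 to 8000 genes and a mitochondrial share of at most 5%. Seurat 5.3.0 (R 4.3.3) clustered both libraries together without *Dlx* genes, using 40 components, cell cycle regression and resolution 0.6. A cluster under the minimum of 30 cells, with 24 cells, was set aside. Ectoderm-like cells were split on 10 components at a resolution of 0.4, without the 55 genes the paper names. Scrublet doublet scores (scanpy 1.11.5) were computed, and doublets were kept in the main analysis.

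UMIs were summed per class and library and divided by the class total (CPM), with exact 95% Poisson intervals. Ratios carry conditional binomial intervals and shares of cells exact binomial intervals. Levels were compared within a gene and not between genes. Cells were thinned to 10000 UMIs for shares, which left out 333 cells. As each genotype has 1 library, no p-value was computed. On simulated counts for the ectoderm comparison (8025 genes, 200 changed), 198 changed genes had the right sign and 178 passed the fold. With 1 library per genotype, the simulation cannot show how far embryos or libraries differ, so it does not test the calls between the libraries.

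The members, gene lists and marker numbers were chosen with earlier results of these data known. Named genes are the members, other *Dlx* genes, the 5 most like each member, the 5 highest and lowest between cells with and without a UMI, and from each list those past the fold or with the most UMIs. Genes that mark or lead a cluster are named too, and *Sp8*, *Gad1*, *Gad2* and *Slc32a1* were added after their values were seen. Some genes this rule would name are not reported here. Alternatives were other filters, resolutions, components, scalings, splits of the ectoderm and a per-cell marker gate.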

Additional observations from a re-analysis of the deposited data

Results flagged for a closer look

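For 2 members the direction of a comparison in 1 library or ectodermal class was the opposite of that in the other, and these differences were not tested. The ratio of LP-like to SE-like *Dlx5* was 0.816 in the WT-labelled library and 6.07 in the KO-labelled library. Seen the other way, the ratio of the KO-labelled library to the WT-labelled library was 3.56 on the LP-like and 0.479 on the SE-like side. *Dlx3* did the same with smaller ratios, at 0.707 and 1.54 for LP-like to SE-like cells and at 1.35 and 0.622 between the libraries. Of these 8 ratios, only the intervals of 6.07 and 3.56 leave out 1.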

How the results depend on the processing

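No paired analysis was possible because each genotype has 1 library. Across 279 alternative values of 29 results, 5 were labelled as turned in direction and 5 as moved. This tally does not cover every crossing of 1 or of the fold. The *Dlx3* ratios of LP-like to SE-like cells and between the libraries in ectoderm-like cells, both near 1, ran to both sides of it. Ratios between the libraries crossed the fold for *Dlx2* and *Dlx3* in SE-like, *Dlx3* in LP-like and *Dlx1* in neural crest-like cells. The *Dlx5* ratio of the KO-labelled library to the WT-labelled library ran from 2.79 to 3.73 in LP-like and from 1.96 to 2.50 in ectoderm-like cells, that of *Dlx6* in ectoderm-like cells from 3.17 to 4.10, and those of *Dlx2* from 0.327 to 0.591 in ectoderm-like and from 0.492 to 0.620 in neural crest-like cells. The pooled ratio of LP-like to SE-like cells ran from 1.71 to 3.96 for *Dlx5* and from 1.76 to 6.92 for *Dlx6*. The *Dlx3* ratio in LP-like cells ran from 1.25 to 2.31.

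The *Dlx3* ratio in optic vesicle-like cells turned to 1.11 at a resolution of 0.3, 2.35 at 1.2 and 1.26 where each cell was assigned by its own markers, and its level of both libraries together was 0.389 CPM at 1.2. The *Dlx5* ratio in SE-like cells turned to 1.11 with the paper's genes kept in and to 1.29 on 5 principal components. *Dlx2* in forebrain neural ectoderm-like cells moved from 0.780 CPM to 23.7 where each cell was assigned by its own markers, which left 16 and 10 cells, and to 1.42 after thinning. The causes of these changes were not tested. In ectoderm-like cells 1385 genes passed the fold, 5594 without a minimum of UMIs and 394 at 2-fold. Leaving out the cell with the most UMIs was added after the data were seen. The ectoderm split was not repeated at other resolutions or for single-cell assignment. Depth limits every member to a few UMIs per cell, and 1 embryo per genotype means that embryo, dissection, library and genotype cannot be told apart.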
